A study of Mus musculus with 6 samples.

Results

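The genes described here encode the enzymes that attach a polar group to drugs, dietary compounds, bile pigments and hormones, together with the carboxylesterases that cut their esters. They are the protein-coding genes of the deposited mouse colon table whose symbols begin with Ugt1a, Ugt2a, Ugt2b, Ugt3a, Sult, Gsta, Gstm, Gstp, Gstt, Gsto, Gstk, Gstz, Mgst or Ces, the Sult and Ces symbols being followed by a digit. This symbol rule, which uses no expression value, found 86 genes among the 54532 of the table: 21 UDP-glucuronosyltransferases (UGT), 21 sulfotransferases (SULT), 22 cytosolic and kappa glutathione transferases (GST), 3 microsomal glutathione transferases (MGST) and 19 carboxylesterases (CES). Colon RNA, measured by RNA-seq, came from C57BL/6 mice aged 56 days, 3 libraries from wild type animals (WT) and 3 from animals labelled IL10-KO, given as IL10-/-, a genotype meant to remove interleukin 10, a cytokine that restrains immune responses in the gut. The comparison asks how colonic RNA differs between these genotypes. The labels give neither the allele, the sex, the housing, the part of the colon nor the state of inflammation. They do not say that each library is a different mouse, so every p-value refers to the spread among the libraries at hand, which may be technical.

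UGT enzymes, in the membrane of the endoplasmic reticulum, transfer glucuronic acid from UDP-glucuronate to bilirubin, steroids, phenols and drugs. SULT enzymes, in the cytosol, transfer sulfate from the donor PAPS, and GST enzymes join glutathione to electrophiles such as lipid peroxidation products. CES enzymes hydrolyse esters and amides and need no cofactor. In the gut these enzymes are made mainly by epithelial cells, where several are induced by the nuclear receptor PXR (Nr1i2), the aryl hydrocarbon receptor (Ahr) or the oxidative stress factor NRF2 (Nfe2l2), and the conjugates leave through ABC and OST transporters.

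Of the 86 genes, 66 had at least 1 read and 41 reached the mean of 1 FPKM (fragments scaled by gene length and library size, as the authors made them) needed for testing. None of the 41 passed limma's test at an adjusted p of 0.05, although members of the same family stood at opposite ends of the list. Gsta1, an alpha-class GST, had the highest log2 fold change and was 7.61-fold higher on average in the IL10-KO-labelled libraries. Sult1a1, the phenol sulfotransferase, Ces1d and the theta-class gene Gstt1 had the lowest, and all 7 mu-class Gstm genes had lower values. For 25 of the 41 the highest value of all was that of a single library, WT library 2.

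The libraries held 13107941 to 15797928 reads, recovered from the FPKM values, and the 86 genes took 0.132% to 0.703% of them, with 48 to 56 of the 86 detected per library. Il10 itself had 0.757, 0.173 and 0.177 FPKM in the WT libraries and 13.8, 10.6 and 14.5 FPKM in the others, which is not the direction of a loss of its RNA, so the second group is called IL10-KO-labelled throughout and every direction rests on the labels. The libraries also differ in what they hold of the gut wall. Over 8 smooth muscle markers the mean log2(FPKM + 1) was 8.71 in WT library 3 and 3.59 in IL10-KO-labelled library 2, against 5.68 to 6.26 in the other 4. Over 8 surface colonocyte markers it was 9.48 in WT library 2 and 5.64 to 7.79 elsewhere. Over 6 neutrophil markers it was 0.23 to 0.25 in WT and 3.92 to 4.78 in the IL10-KO-labelled libraries. Over 10 general epithelial markers it was 7.31 to 9.34 in WT and 8.88 to 9.21 in the others. All 10 had higher values in the IL10-KO-labelled libraries (median log2 fold change 0.83), 1 of them without overlap. In whole colon RNA, fewer cells of a type and less RNA per cell cannot be told apart. Of 6 hepatocyte markers, 3 were tested (Ttr, Apoa2 and Cyp2e1), all 3 with lower values in the IL10-KO-labelled libraries (median -0.75). The 6 summed to 32.8, 16.0 and 6.67 FPKM in WT and 6.16, 4.57 and 8.58 FPKM in the others, most of it Ttr in WT libraries 1 and 2. Alb, a defining hepatocyte gene, lay between 0 and 0.81 FPKM, and Serpina1a had no read.

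Sequences are shown first where they bear on the values. Gsta1 (ENSMUSG00000074183) lies at chr9:78230656-78242684 on the plus strand of GRCm38, and the predicted gene Gm3776 lies beside it at chr9:78257129-78269166 on the same strand. Both coding sequences have 669 bases and they differ at 2 of them (99.7% identity), so short reads can hardly tell the genes apart. The first 150 coding bases of each, read from the GENCODE M21 annotation, follow, with the single base that differs in this stretch in capitals:
Gsta1: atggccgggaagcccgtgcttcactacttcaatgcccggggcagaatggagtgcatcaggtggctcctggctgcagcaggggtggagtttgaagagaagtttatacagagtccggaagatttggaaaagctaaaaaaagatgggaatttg
Gm3776: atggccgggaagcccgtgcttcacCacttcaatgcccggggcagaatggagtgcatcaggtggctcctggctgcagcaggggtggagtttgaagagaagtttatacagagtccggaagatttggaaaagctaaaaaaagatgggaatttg

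Gsta2 is identical to Gsta1 over these 150 bases, and a further predicted gene, Gm10639, is identical to Gm3776 over them. Of all 50-base stretches in the Gsta1 transcripts, 9.50% occur in no other gene and 75.7% also occur in Gm3776. How the authors counted reads that map to several genes is not given in the sources used here, so the value of Gsta1 may include reads of its neighbours.

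The mu-class genes form a single cluster of 7, at chr3:107895821-108044894. For the 3 most abundant of those on the minus strand, the 250 bases upstream of the annotated start are shown from RefSeq (GRCm38.p6), because these neighbours had lower values together. Capitals mark a match to GCGTG, the core of the element bound by the aryl hydrocarbon receptor:
Gstm1 (chr3:108017974-108018223): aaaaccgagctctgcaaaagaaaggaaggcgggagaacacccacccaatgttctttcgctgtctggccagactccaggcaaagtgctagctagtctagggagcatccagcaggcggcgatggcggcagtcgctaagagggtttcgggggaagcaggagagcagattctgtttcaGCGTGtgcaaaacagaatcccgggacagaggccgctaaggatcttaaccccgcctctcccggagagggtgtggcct
Gstm2 (chr3:107986421-107986670): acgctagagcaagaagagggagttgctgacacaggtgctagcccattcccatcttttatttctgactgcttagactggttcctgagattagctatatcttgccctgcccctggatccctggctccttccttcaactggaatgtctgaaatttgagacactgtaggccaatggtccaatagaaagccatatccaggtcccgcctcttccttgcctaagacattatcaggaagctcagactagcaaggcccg
Gstm3 (chr3:107969175-107969424): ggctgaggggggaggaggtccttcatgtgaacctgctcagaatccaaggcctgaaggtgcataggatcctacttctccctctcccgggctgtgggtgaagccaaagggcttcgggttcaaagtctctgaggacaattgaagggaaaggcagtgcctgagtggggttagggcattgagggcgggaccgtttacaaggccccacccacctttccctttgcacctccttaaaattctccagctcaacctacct

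Upstream windows of 250 bases were found for 74 of the 86 genes and were searched on both strands for 2 motifs. GCGTG was present in 9 of the 74 (12.2%) and in 28.2% of all 32851 windows. TGACNNNGC, the core of the antioxidant response element bound by NRF2, was present in 3 of the 74 (4.05%: Gsta3, Gstm5 and Mgst1) and in 10.2% of all windows. In Gstm5 a GCGTG match lies within the TGACNNNGC match on the opposite strand. These are matches of letters in a short window and say nothing of binding.

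Values per library are given below in FPKM in the order of replicates 1, 2 and 3, WT before IL10-KO-labelled. Log2 fold changes are IL10-KO-labelled minus WT on the log2(FPKM + 1) scale with their standard error (SE), which understates the change of low genes, and means carry the SD over 3 libraries. Adjusted p is limma's, with Benjamini-Hochberg adjustment over all 12668 genes tested. A single gene's exact two-sided permutation test of 3 against 3 libraries cannot go below p = 0.1.

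By limma 0 of the 41 tested members were called in either direction, where 0.182% of all tested genes were called higher and 0.0% lower. At an unadjusted p under 0.05, 2 members were higher and 7 lower, against 6.14% and 4.03% of all genes, and voom on the recovered reads also called 0. The groups did not overlap for 2 members in the higher direction, Gsta1 and Gstp3, where 8.84% of all genes did so. They did not overlap for 6 in the lower direction, Sult1a1, Gstt1, Sult4a1, Gstm1, Gstm2 and Gstm5, where 7.89% of all genes did so. In percent of the 41, these are 4.88% and 14.6%, the first below and the second above the share of all genes. The median log2 fold change over the 41 was -0.42, with 18 values above 0 and 23 below, beside a median of 0.04 over all genes tested, of which 54.1% were above 0 and 45.9% below.

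**Figure D1:**
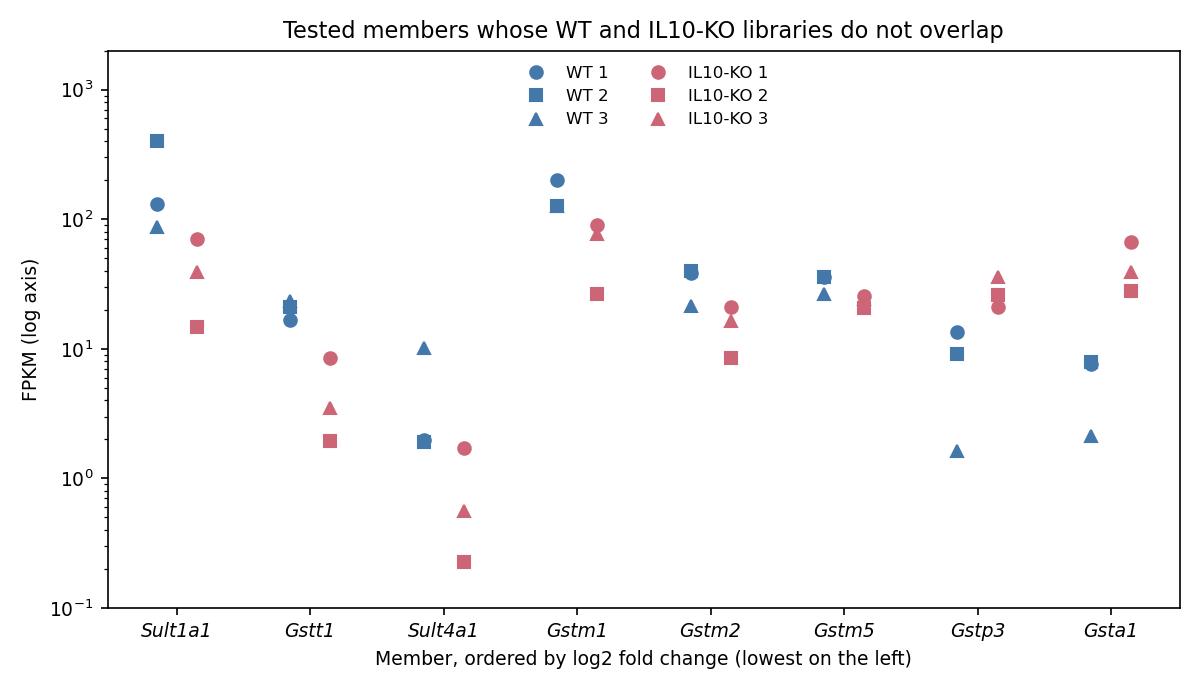
FPKM per library (log axis) of the 8 tested members whose WT and IL10-KO-labelled libraries did not overlap, 1 point per library, coloured by label and shaped by replicate. Gsta1 and Gstp3 are higher in all 3 IL10-KO-labelled libraries; the other 6 are lower in all 3, and the gap between groups is narrow for Gstm5 and Gstm2.

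These figures depended on single libraries. Without WT library 2 the members' median was 0.19 and 20 members did not overlap, 13 of them higher and 7 lower, while the share of all genes that did not overlap, over both directions, was 43.8%. With all 6 libraries that share was 16.7%, against 19.5% of the members. Without WT library 3 the median was -0.66 and 13 did not overlap (all genes 22.4%), and without IL10-KO-labelled library 1 the median was -0.55 and 14 did not overlap (all genes 29.8%). Without IL10-KO-labelled library 2 the median was -0.17 and 9 did not overlap (all genes 19.6%), and without WT library 1 it was -0.45 and 11 did not (all genes 28.8%). Groups of 3 against 2 fail to overlap more often than 3 against 3, so each count is read beside its own share of all genes.

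The GST family had the most tested members, 19 of its 22, 9 with positive and 10 with negative log2 fold changes (median -0.34). Its classes parted: all 3 tested alpha and all 3 pi genes had higher mean log2 values in the IL10-KO-labelled libraries, with a median of 0.61 in each class, and all 7 mu genes had lower ones, with a median of -1.10. With trimmed-mean, quantile and TPM scaling these directions held except for Gstp1 with quantile normalization. Gsta3 also turned negative with a weight per library and without IL10-KO-labelled library 3, Gsta3 and Gstm4 changed sign without WT library 2, and Gstp1 did so without WT library 3. The 3 tested theta genes had a median of -0.42. Among the 7 mu genes 4 had an unadjusted limma p under 0.05, all lower, where 4.03% of all tested genes did so in that direction. Of the 3 alpha and 3 pi genes 1 each did so, both higher, where 6.14% of all tested genes did.

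Gsta1, whose product detoxifies lipid peroxides and is strongly inducible, had 7.65, 7.92 and 2.10 FPKM in WT and 67.2, 27.9 and 39.4 FPKM in the IL10-KO-labelled libraries. All 3 of the latter lay above all 3 WT libraries. The means were 5.89 ± 3.28 and 44.8 ± 20.2 (SD, n = 3), resting on 244 and 1844 reads. The log2 fold change was 2.79 (SE 0.52, limma adjusted p = 0.128). It lay between 2.29 and 3.08 when each library was left out in turn. With a weight per library the log2 fold change was 2.32 and limma's adjusted p was 0.0382, the lowest of the alternatives, which ranged up to 0.435. Gm3776, named because it shares sequence with Gsta1, had 1.77, 1.13 and 0.885 FPKM in WT against 9.25, 4.0 and 2.95, a log2 fold change of 1.40 (SE 0.39, limma adjusted p = 0.329). Whether the reads come from Gsta1, Gm3776 or Gsta2 was not tested.

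Gsta4, which conjugates the lipid aldehyde 4-hydroxynonenal, had 8.03, 10.3 and 11.2 FPKM in WT against 24.5, 6.93 and 20.7 FPKM. Library 2 of the IL10-KO-labelled group lay below all WT libraries and the other 2 above them (log2 fold change 0.61, SE 0.46, limma adjusted p = 0.705). Gsta3 was low throughout, between 0.68 and 2.87 FPKM, with overlapping groups. The ratio of Gsta1 to Gsta4 within a library, chosen after the values were seen, was 0.953, 0.770 and 0.188 in WT and 2.75, 4.02 and 1.90 in the IL10-KO-labelled libraries. Gsta1 was thus the less abundant of the pair in every WT library and the more abundant in every other.

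Gstp3 (ENSMUSG00000058216, chr19:4057477-4059446, minus strand), a less studied neighbour of the abundant Gstp1, had 13.5, 9.08 and 1.64 FPKM in WT against 21.1, 26.2 and 36.1 FPKM. The groups did not overlap, and every 50-base stretch of its transcripts is unique to it. The means were 8.09 ± 6.02 and 27.8 ± 7.61 (SD, n = 3), and the log2 fold change was 1.95 (SE 0.63, limma adjusted p = 0.403). Gstp1, the main pi-class enzyme of the colon, had 101, 319.8 and 88.4 FPKM against 262, 132 and 160.1. Its groups overlapped, with WT library 2 the highest of all 6 (0.31, SE 0.57, limma adjusted p = 0.889). Gstp2, with 45.7% of its 50-base stretches unique (66.3% for Gstp1), ranged from 2.41 to 13.1 FPKM with overlapping groups. Unlike that of Gsta1 to Gsta4, the ratio of Gstp3 to Gstp1 overlapped, at 0.134, 0.0284 and 0.0185 in WT and 0.0806, 0.198 and 0.225 in the others. The ratio of Gstp3 to Epcam, a general epithelial marker, overlapped too, at 0.0287, 0.00669 and 0.00861 in WT and 0.0267, 0.0237 and 0.0477 in the others. Those of Gsta1, Sult1a1 and Gstt1 to Epcam did not overlap, but the groups of these genes already did not overlap before division. All 10 general epithelial markers, Epcam among them, had higher values in the IL10-KO-labelled libraries. Division by Epcam therefore lowers Sult1a1 and Gstt1 further there, and these ratios are no further check. The 6 neutrophil markers, at a mean log2(FPKM + 1) of 0.23 to 0.25 in WT and 3.92 to 4.78 in the others, separated the libraries in the same direction as Gsta1 and Gstp3, and their part in these values was not tested.

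Gstm1 (ENSMUSG00000058135, chr3:108012255-108017973, minus strand), the most abundant mu-class gene in these libraries, had 202, 128 and 126 FPKM in WT and 90.7, 26.4 and 76.6 FPKM in the IL10-KO-labelled libraries. The groups did not overlap, with means of 152 ± 43.6 and 64.6 ± 33.8 (SD, n = 3) and a log2 fold change of -1.36 (SE 0.52, limma adjusted p = 0.462). The ratio of Gstm1 to Gstp1 overlapped, at 1.99, 0.399 and 1.42 in WT and 0.346, 0.199 and 0.479 in the others. So did the ratio of Gstm1 to Epcam, at 0.428, 0.0940 and 0.661 in WT and 0.115, 0.0239 and 0.101 in the others. Mu-class enzymes act on epoxides and on carcinogen metabolites. Gstm2 had 38.7, 39.7 and 21.2 FPKM against 21, 8.56 and 16.4 FPKM, and Gstm5 had 35.6, 35.9 and 26.6 FPKM against 25.7, 20.8 and 24.3 FPKM. In both the lowest WT value stood just above the highest of the other group, and the log2 fold changes were -1.10 (SE 0.41) and -0.45 (SE 0.26), with limma adjusted p of 0.459 and 0.611.

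Gstm3 and Gstm6 had log2 fold changes like those of Gstm1 but overlapping groups. Gstm3 had 33.6, 77.1 and 13.0 FPKM in WT against 17.9, 8.0 and 7.86 FPKM (-1.55, SE 0.65, limma adjusted p = 0.49). Gstm6 had 8.01, 9.48 and 3.31 FPKM against 3.82, 1.85 and 1.48 FPKM (-1.19, SE 0.42, limma adjusted p = 0.441). In both it was WT library 3 that lay among the IL10-KO-labelled values. Gstm4 and Gstm7 had values of -0.57 and -0.41, with limma adjusted p of 0.747 and 0.726. Gstm1 and Gstm3 had 81.1% and 71.2% of 50-base stretches to themselves, so part of their reads may be shared with relatives.

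Gstt1 (ENSMUSG00000001663, chr10:75783813-75798584, minus strand), which acts on small halogenated compounds, had 16.7, 21.2 and 23.2 FPKM in WT and 8.45, 1.96 and 3.49 FPKM in the IL10-KO-labelled libraries. The WT libraries lay close together and all stood well above the rest, with means of 20.4 ± 3.32 and 4.63 ± 3.39 (SD, n = 3) on 1297 and 297 reads. The log2 fold change was -2.08 (SE 0.43, limma adjusted p = 0.189), and -2.54 to -1.70 when each library was left out. With a weight per library it was -2.16 with a limma adjusted p of 0.0491, the lowest of the alternatives, which ranged up to 0.668. Its transcripts share no 50-base stretch with another gene. Its neighbours in the theta cluster did not have this pattern of values: Gstt2 had 10.9, 12.6 and 6.98 FPKM against 11.3, 8.22 and 11.1 FPKM (0.03, SE 0.28, limma adjusted p = 0.985), and Gstt3 had a log2 fold change of -0.42 (SE 0.35). The ratio of Gstt1 to Gstt2 within a library, also chosen after the values were seen, was 1.54, 1.68 and 3.32 in WT and 0.75, 0.238 and 0.313 in the IL10-KO-labelled libraries, without overlap.

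Smooth muscle markers, all 8 of them, were lower without overlap in the IL10-KO-labelled libraries, where 7.89% of all tested genes were. Their median log2 fold change was -2.13, and 6 fibroblast markers had a median of -0.69. The part of both sets of markers in the mu and theta values was not tested. WT library 3, by far the highest in smooth muscle markers, had the lowest WT value of Gstm1, Gstm2, Gstm3, Gstm4, Gstm5, Gstm6 and Gstm7 and the highest of Gstt1. IL10-KO-labelled library 2 was the lowest of all 6 for the 8 smooth muscle markers, for 4 of the 7 mu genes and for Gstt1. It was the lowest for 14.9% of all tested genes.

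The balance of the GST classes can be read within each library, without reference to scaling between libraries. Of the summed FPKM of the 22 GST genes, the mu class made up 48.6%, 30.2% and 48.1% in WT and 19.4%, 15.1% and 22.1% in the IL10-KO-labelled libraries. Alpha-class genes made up 2.69%, 1.85% and 3.57% in WT and 10.9%, 7.83% and 10.5% in the others. Theta-class genes made up 5.13%, 4.61% and 8.80% against 3.21%, 3.09% and 3.40%. For these 3 classes the groups did not overlap, also with WT library 2, whose summed GST level was the highest. Gsta1 alone gave 67.2, 27.9 and 39.4 of the alpha sums of 92.9, 36.7 and 63.0 FPKM in the IL10-KO-labelled libraries. Gstt1 gave 16.7, 21.2 and 23.2 of the theta sums of 34.5, 47.0 and 35.6 FPKM in WT. Shares without these 2 genes were not computed, so no shift of the whole alpha or theta class is read from them. Pi-class genes made up 17.9%, 33.2% and 22.9% in WT and 33.4% to 35.6% in the others. The omega, kappa and zeta genes together made up 16.7% to 30.1% in WT and 30.6% to 38.4% in the others. In these last classes WT library 2 came within 1 percentage point of the IL10-KO-labelled libraries. Shares of 1 total are bound to each other, so a higher share of some classes comes with a lower share of the rest.

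**Figure D2:**
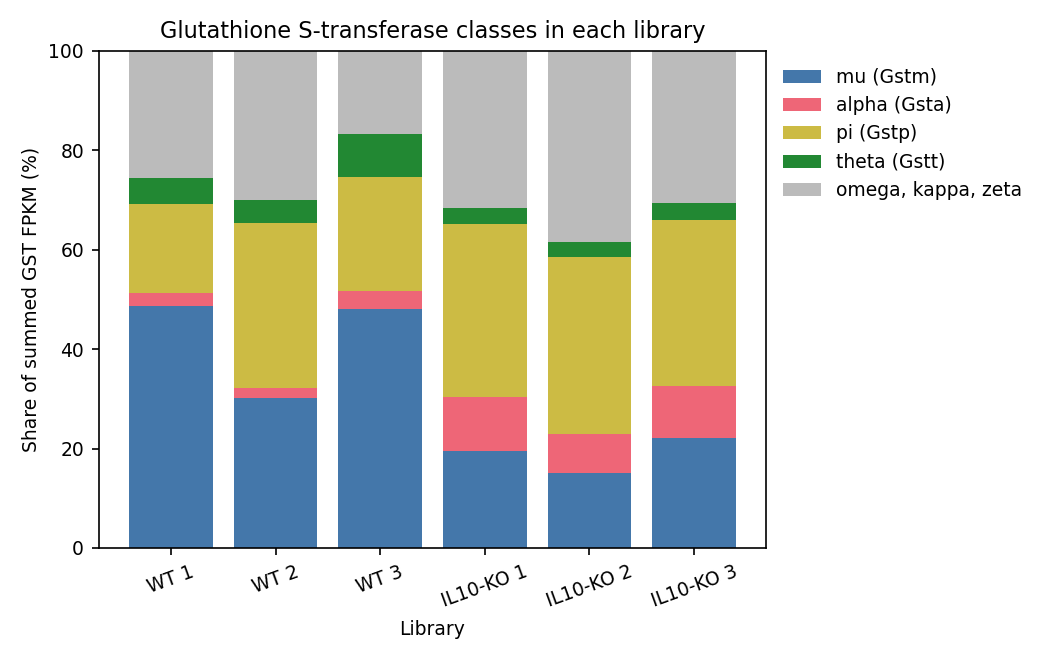
Share of the summed GST FPKM (percent) held by each GST class in each of the 6 libraries, stacked to 100%. The mu class takes 30.2% to 48.6% in the WT libraries and 15.1% to 22.1% in the IL10-KO-labelled ones, and the alpha class 1.85% to 3.57% and 7.83% to 10.9%.

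Gsto1, an omega-class enzyme that reduces dehydroascorbate and methylated arsenic, had 146, 188 and 51.6 FPKM in WT against 223, 147 and 156 FPKM (0.61, SE 0.53, limma adjusted p = 0.746). Gstk1, the kappa-class enzyme of mitochondria and peroxisomes, had 23.5, 114 and 10.4 FPKM against 43.6, 30.6 and 24.2 FPKM (0.05, SE 0.81). WT library 2 was 4.88 times the next WT library for Gstk1, and the IL10-KO-labelled values lay between the WT ones. Gstz1, which acts in tyrosine breakdown, had values from 1.96 to 5.40 FPKM in overlapping groups.

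The microsomal enzymes are a separate family of membrane proteins. Mgst3, which reduces lipid hydroperoxides and was the most abundant of all members, had 239.6, 857 and 111 FPKM in WT and 701, 375 and 342 FPKM in the IL10-KO-labelled libraries. WT library 2 and IL10-KO-labelled library 1 stood above the rest and the groups overlapped (0.66, SE 0.76, limma adjusted p = 0.82). Mgst1 had 62.7, 64.7 and 22.8 FPKM against 62.5, 54.4 and 67.4 FPKM, and Mgst2 had 39.9, 42.3 and 29.4 FPKM against 52.7, 28.1 and 37.2 FPKM. For neither did the groups separate, and the log2 fold changes were 0.42 (SE 0.45) and 0.05 (SE 0.33).

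Among the sulfotransferases, 6 of 21 were tested, 2 with positive and 4 with negative log2 fold changes (median -1.20), and Sult1a1 had the lowest log2 fold change of all members. Sult1a1 (ENSMUSG00000030711, chr7:126672865-126676432, minus strand), which sulfates small phenols and catechols, had 131, 403 and 87.1 FPKM in WT and 70.3, 14.8 and 39.1 FPKM in the IL10-KO-labelled libraries. All 3 WT libraries were higher, although library 3 of WT and library 1 of the other group lay close together. The means were 207 ± 171 and 41.4 ± 27.8 (SD, n = 3), 5.0-fold lower in the latter, and the log2 fold change was -2.23 (SE 0.74, limma adjusted p = 0.423). The end of Sult1a1 overlaps Sgf29 on the other strand, and no strand setting is given; Sgf29 had 11.6 to 18.1 FPKM in all 6 libraries.

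Sult1b1, Sult1d1, Sult1c2 and Sult2b1 had overlapping groups. Sult1b1, which sulfates thyroid hormones and phenols, had 40.5, 151 and 14.4 FPKM in WT against 67.8, 46.8 and 29.7 FPKM (0.02, SE 0.81, limma adjusted p = 0.996). Sult1d1, a sulfotransferase for catecholamines and eicosanoids in mice, had 49.7, 574 and 34.7 FPKM against 116, 28.4 and 20.3 FPKM (-1.28, SE 1.15, limma adjusted p = 0.755). For both genes WT library 2 was the highest. The remaining WT values of Sult1d1 lay among the IL10-KO-labelled ones, while for Sult1b1 WT library 1 did and WT library 3 was the lowest of all 6. The ratio of Sult1a1 to Sult1b1, chosen after the values were seen, was 3.24, 2.67 and 6.03 in WT and 1.04, 0.316 and 1.32 in the others, so it separated the groups also in WT library 2. Sult1c2 had 11.0, 10.9 and 3.86 FPKM against 5.36, 1.21 and 3.89 FPKM (-1.11, SE 0.51), and the cholesterol sulfotransferase Sult2b1 had 7.74 to 27.3 FPKM in WT against 11.0 to 21.8 FPKM (0.22, SE 0.50).

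Sult4a1, a sulfotransferase best known from neurons and without a known typical substrate, had 1.97, 1.90 and 10.1 FPKM in WT and 1.70, 0.228 and 0.562 FPKM in the IL10-KO-labelled libraries (-1.40, SE 0.59, limma adjusted p = 0.49). WT library 3 stood far above the rest, and the groups were kept apart by 1.90 against 1.70 FPKM. The mean log2(FPKM + 1) of 8 enteric neuron and glia markers was 2.09, 1.82 and 4.06 in WT and 1.82, 0.49 and 0.91 in the others, with WT library 3 again highest and IL10-KO-labelled library 2 lowest. All 8 of these markers had lower values in the IL10-KO-labelled libraries, 2 of them without overlap (25.0%, against 7.89% of all tested genes). Their part in the Sult4a1 value was not tested.

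The glucuronosyltransferases were sparse in this tissue: 4 of 21 were tested, all 4 with negative log2 fold changes (median -0.61), and in none did the groups separate. Without WT library 2, 3 of the 4 (Ugt2b34, Ugt2b5 and Ugt1a7c) turned positive. Ugt2b34, the UGT with most RNA here, had 43.4, 204 and 18.0 FPKM in WT against 69.9, 29.0 and 24.2 FPKM (-0.56, SE 0.88, limma adjusted p = 0.867). It held 75.1% to 89.3% of the summed UGT signal in every library. Ugt2b5 had 0.133, 24.5 and 0.791 FPKM against 9.34, 0.0684 and 0.264 FPKM, and Ugt1a7c had 0.793, 13.8 and 0.66 FPKM against 0.845, 0.829 and 1.32 FPKM. Ugt2b5, with 58.3% of its 50-base stretches unique, had its RNA almost wholly in WT library 2 and IL10-KO-labelled library 1. Ugt1a7c was far the highest in WT library 2, with 0.66 to 1.32 FPKM elsewhere. The log2 fold changes of Ugt2b5 and Ugt1a7c were -0.63 (SE 1.35) and -0.83 (SE 0.82). Ugt2b35 had 2.57 to 4.57 FPKM in WT and 1.21 to 2.71 FPKM in the others (-0.59, SE 0.29, limma adjusted p = 0.544). Its groups overlapped narrowly, at 2.57 against 2.71 FPKM.

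The 9 Ugt1a genes are alternative starts of a single locus (chr1:88055388-88220002) that share their last exons, and 19.8% to 47.9% of their 50-base stretches are unique. Ugt1a1, the bilirubin-conjugating enzyme, stayed below the mean of 1 FPKM, with 0.111, 4.39 and 0 FPKM in WT against 0.926, 0.372 and 0.0552 FPKM. It exceeded 1 FPKM in WT library 2 only. Ugt1a6a, which acts on planar phenols, had 1.16, 1.02 and 0.108 FPKM against 0.588, 0.28 and 0.199 FPKM.

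**Figure D3:**
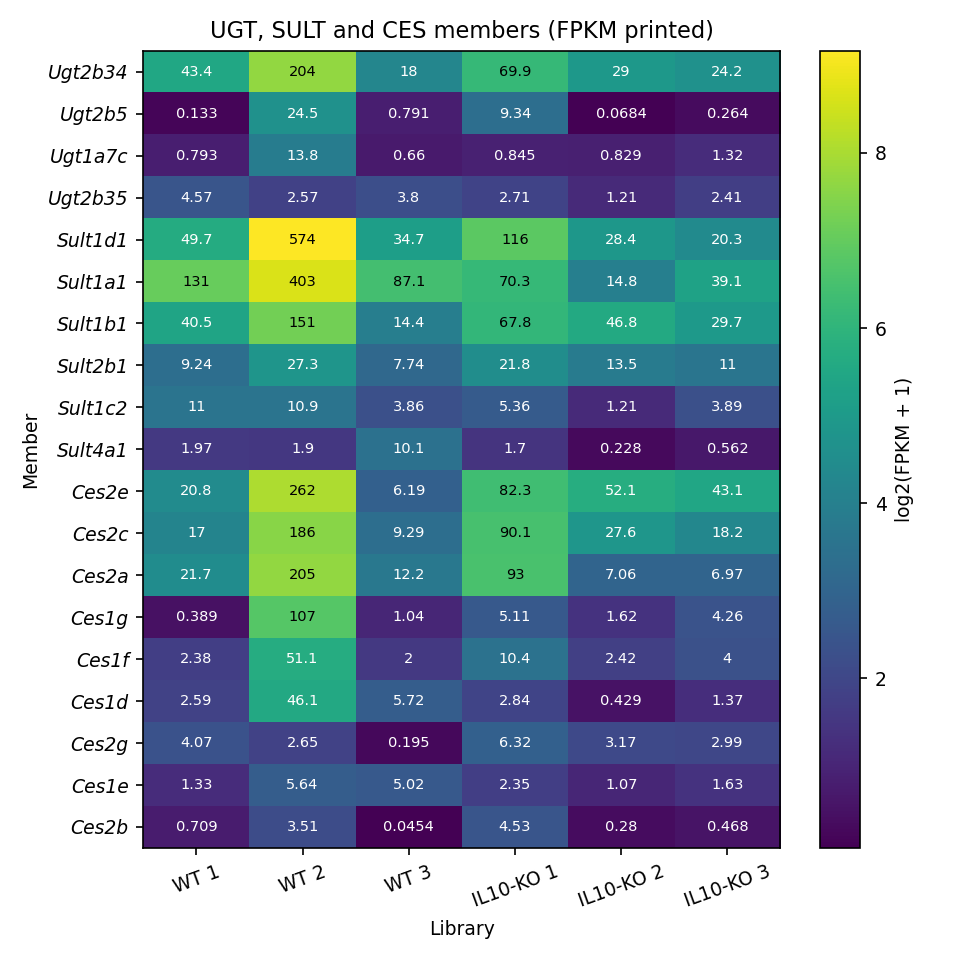
Heat map of log2(FPKM + 1) for the tested UGT, SULT and CES genes (rows) in the 6 libraries (columns), with the FPKM printed in each cell. WT library 2 and IL10-KO-labelled library 1 are the brightest columns for many of the genes, such as Ces2a (205 and 93.0 FPKM) and Ugt2b5 (24.5 and 9.34 FPKM), while Sult1a1 separates the groups.

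As a ratio of the highest to the lowest WT library, the summed FPKM of carboxylesterases spread more than that of any other of these families: it was 72.2, 869 and 42.0 in WT and 299, 97.2 and 83.8 in the IL10-KO-labelled libraries. The genes lie in 2 clusters on chromosome 8, the 8 Ces1 genes at chr8:93020214-93379725 and the 7 Ces2 genes at chr8:104734003-105021178. All 4 tested Ces1 genes had negative log2 fold changes (median -0.70), and 4 of 5 tested Ces2 genes had positive ones (median 0.18). In none of the 9 did the groups separate, and 2 of the 4 Ces1 genes turned positive without WT library 2. Of the 5 Ces2 genes all were positive without that library and 1 without WT library 3.

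Ces1d, a triacylglycerol and ester hydrolase of fat and liver, had 2.59, 46.1 and 5.72 FPKM in WT against 2.84, 0.429 and 1.37 FPKM (-2.15, SE 0.93, limma adjusted p = 0.506). The overlap was narrow, since only IL10-KO-labelled library 1 exceeded the lowest WT value. Ces1g, which hydrolyses lipid and drug esters, had 0.389, 107 and 1.04 FPKM against 5.11, 1.62 and 4.26 FPKM. WT library 2 held 103 times the next WT library, and the other WT libraries lay below all the IL10-KO-labelled ones, so that the log2 fold change of -0.62 (SE 1.57) turned to 1.38 without WT library 2. Ces1f had 2.38, 51.1 and 2.0 FPKM against 10.4, 2.42 and 4.0 FPKM, and its log2 fold change of -0.48 (SE 1.12) likewise turned to 0.86. The mean log2(FPKM + 1) of 3 tested adipocyte markers was 2.98, 2.44 and 3.01 in WT and 3.11, 1.33 and 1.51 in the others, and their part in the Ces1d values was not tested.

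Ces2 enzymes are the main intestinal esterases and activate ester prodrugs. Ces2e had 20.8, 262 and 6.19 FPKM in WT and 82.3, 52.1 and 43.1 FPKM in the IL10-KO-labelled libraries (0.75, SE 1.22, limma adjusted p = 0.873). Ces2c had 17.0, 186 and 9.29 FPKM against 90.1, 27.6 and 18.2 FPKM (0.18, SE 1.13). In both genes WT libraries 1 and 3 lay below all 3 IL10-KO-labelled libraries and WT library 2 above them. Ces2a had 21.7, 205 and 12.2 FPKM against 93.0, 7.06 and 6.97 FPKM (-1.12, SE 1.32), with IL10-KO-labelled libraries 2 and 3 below every WT library. Within the cluster the ratio of Ces2a to Ces2c, chosen after the values were seen, was 1.28, 1.11 and 1.32 in WT and 1.03, 0.256 and 0.383 in the others. These did not overlap, by the narrow gap of 1.11 against 1.03. Ces2a and Ces2c had 82.7% and 63.9% of 50-base stretches to themselves, so part of their reads may be shared with relatives. The ratio of Ces2a to Ces2e did overlap, at 1.04, 0.784 and 1.98 in WT and 1.13, 0.136 and 0.162 in the others. Ces2f did not reach the mean of 1 FPKM but had 0.164, 0.0461 and 0 FPKM in WT against 2.27, 1.33 and 0.548 FPKM.

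Many members had the same libraries at the top. WT library 2 was the highest for 61.0% of the 41 tested members and for 29.9% of all tested genes. It was highest for 7 of 9 CES, 3 of 4 UGT, 4 of 6 SULT and 10 of 19 GST genes. WT library 2 followed by IL10-KO-labelled library 1 was the order at the top for 15 members (36.6%) and for 11.2% of all genes. WT library 3 was the lowest for 19 members, and for 28.5% of all genes. Mitochondrial genes took 43.4% of its reads and 8.61% to 22.0% of those of the other 5 libraries, and their part in these values was not tested. The median FPKM of the tested members was 10.9, 27.3 and 6.98 in WT and 17.9, 7.93 and 7.86 in the others. Of the 8 surface colonocyte markers, 3 had higher and 5 lower values in the IL10-KO-labelled libraries (median -1.38). WT library 2 was the highest for 6 of the 8. The 2 colonocyte genes Car1 and Cyp2c55, the latter 1 of the 8, had the same libraries at the top as those members. Car1, a carbonic anhydrase of colonocytes, had 117, 31511 and 456 FPKM in WT against 5716, 544 and 481 FPKM, and Cyp2c55 had 33.3, 4492 and 145 FPKM against 449, 0.0319 and 2.55 FPKM. Hoxb13, a gene of the most distal gut, had 58.4, 0 and 8.52 FPKM against 25.8, 22.2 and 6.03 FPKM, with no read in WT library 2. Car1, Hoxb13 and, from among the markers, Cyp2c55 were chosen after their values were seen, and their part in the members' values was not tested.

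**Figure D4:**
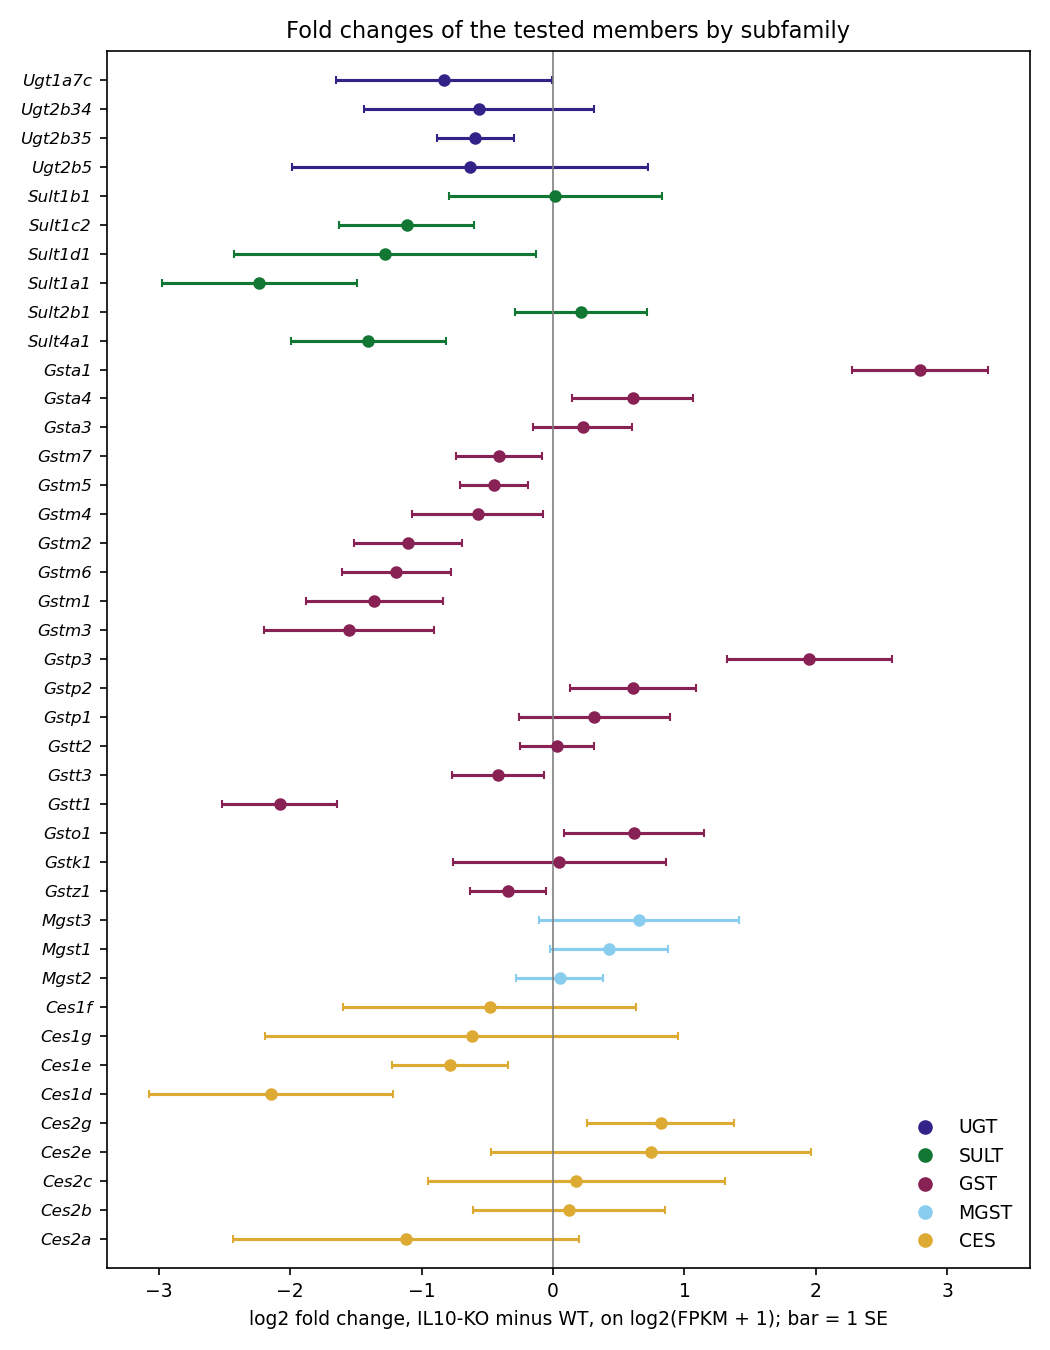
Log2 fold change (IL10-KO-labelled minus WT, log2(FPKM + 1) scale) of each of the 41 tested members with a bar of 1 standard error, coloured by family. Values run from 2.79 for Gsta1 to -2.23 for Sult1a1, all 7 Gstm points lie below 0, and the bars are widest among CES genes (SE 1.57 for Ces1g).

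Not every member was detected. There were 20 with no read in any library: Sult1e1, all 8 Sult2a genes, Sult3a2, Sult6b2, Ugt1a8, Ugt1a9, Ugt1a10, Ugt2a1, Ugt2a2, Ugt2a3, Ugt3a1, Ces4a and Ces5a. Sult2a enzymes sulfate bile acids and steroids in liver, and Sult1e1 sulfates estrogens. A count of 0 allows up to 3 reads, which is 0.0560 to 0.321 FPKM over these genes and libraries. A further 25 members had reads but a mean below 1 FPKM, of which Ces2f, Ugt1a1, Ugt1a6a and Ugt2b36 reached 1 FPKM in some library and 21 did not in any. Ugt2a1 and Ugt2a2 share most of their sequence, with 2.98% and 6.4% of 50-base stretches unique, and how reads shared between them were counted is not given.

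Genes that supply, control and export these reactions were taken from 5 lists with 73 tested genes, of which limma called 0, with 7 higher (9.59%) and 1 lower (1.37%) at an unadjusted p under 0.05, where 6.14% and 4.03% of all tested genes were. Their median log2 fold change was 0.06, with 39 above and 34 below 0. For 17 tested genes of cofactor supply, 8 had higher and 9 lower values (median -0.09). In 3 of the 17, all higher, the groups did not overlap (17.6%, against 8.84% of all tested genes). Papss2, which makes the sulfate donor PAPS, had 42.3, 783 and 30.2 FPKM in WT against 105, 56.9 and 40.2 FPKM, and Ugdh, which makes UDP-glucuronate, had 19.2, 156 and 12.8 FPKM against 35.7, 11.4 and 8.40 FPKM. Both had WT library 2 highest and IL10-KO-labelled library 1 next, as Sult1d1 and Ugt2b34 did. Gsr and Chac1, genes of glutathione turnover named because their groups did not overlap, differed from these. Gsr, glutathione reductase, had 24.8, 33.7 and 13.7 FPKM against 36.9, 49.7 and 44.8 FPKM (0.91, SE 0.37, limma adjusted p = 0.482). Chac1, which degrades glutathione, had 0.0473 to 0.278 FPKM against 1.61 to 6.37 FPKM (1.73, SE 0.42, limma adjusted p = 0.261). The other glutathione genes of the list are not described here.

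Of 18 tested NRF2 target genes outside the families, 13 had higher and 5 lower values (median 0.26), and 4 did not overlap, all higher (22.2%, against 8.84% of all tested genes). Hmox1, heme oxygenase, had 2.90, 2.42 and 1.81 FPKM in WT against 5.79, 17.1 and 11.9 FPKM (1.80, SE 0.38, limma adjusted p = 0.192). Txnrd1, thioredoxin reductase, had 13.5, 29.7 and 10.4 FPKM against 42.6, 61.3 and 36.6 FPKM (1.44, SE 0.43, limma adjusted p = 0.36). These 2 genes and Gsta1 were higher in all 3 IL10-KO-labelled libraries, while Nqo1, another common NRF2 target, had 11.1, 59.1 and 8.97 FPKM against 27.5, 16.3 and 21.2 FPKM. Nfe2l2 itself had 15.9 to 71.8 FPKM in WT and 20.4 to 27.8 FPKM in the others. Hmox1 is also made by macrophages, whose 6 markers had a mean log2(FPKM + 1) of 2.93 to 4.0 in WT and 3.49 to 3.96 in the others, and their part in the Hmox1 values was not tested.

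Among 15 tested receptors and transcription factors 8 had higher and 7 lower values (median 0.12). The bile acid receptor FXR (Nr1h4) had 24.3, 54.7 and 11.4 FPKM in WT against 90.8, 58.0 and 65.5 FPKM (1.46, SE 0.56, limma adjusted p = 0.459), and Ahr had 3.34, 2.78 and 4.27 FPKM against 2.16, 1.58 and 2.45 FPKM (-0.54, SE 0.23, limma adjusted p = 0.496). Neither pair of groups overlapped. These were the only such genes of the 15, 6.67% in each direction. Of all tested genes 8.84% did not overlap in the higher direction and 7.89% in the lower. PXR (Nr1i2) had 9.85 to 44.4 FPKM in WT and 18.6 to 25.4 FPKM in the others. Of 12 tested transporters of conjugates 4 had higher and 8 lower values (median -0.28). In 2 of the 12, both higher, the groups did not overlap (16.7%, against 8.84% of all tested genes). Slc51b, a subunit of the basolateral bile acid and steroid sulfate exporter, had 34.8, 37.5 and 13.6 FPKM against 302, 146 and 145 FPKM (2.78, SE 0.50, limma adjusted p = 0.124), and Slco4a1 had 1.07 to 1.69 FPKM against 1.76 to 2.34 FPKM. Of 15 tested other phase II and hydrolase genes, 7 had higher and 8 lower values (median -0.16). In 2 of these 15, both lower, the groups did not overlap (13.3%, against 7.89% of all tested genes). Aadac, an ester hydrolase of the endoplasmic reticulum like the carboxylesterases, had 29.2, 43.0 and 13.1 FPKM against 6.39, 1.02 and 1.63 FPKM (-2.97, SE 0.60, limma adjusted p = 0.177), and As3mt had 15.4 to 16.5 FPKM against 10.2 to 14.7 FPKM.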

How the data were processed

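The authors deposited 1 table of FPKM values per gene for 6 libraries, prepared with an NEBNext Ultra kit per the labels' protocols. Bowtie 0.12.2 and the builds hg38 and mm8 are named in the submitters' processing notes. Which program counted the reads, whether by strand, and what it did with multi-mapped reads was not given in the sources used here. GRCm38 is used because 82 of the 86 members have in the table the coordinates of GENCODE M21. In each library FPKM times gene length came in whole steps for 100% of values (tolerance 0.01), which gave whole reads. Floors and read counts cover counting error only.

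Log2(FPKM + 1) of the 12668 genes averaging 1 FPKM or more was fitted with limma 3.58.1 (R 4.3.3; eBayes with trend, no block), with Benjamini-Hochberg adjustment and a threshold of 0.05. Python 3.11.15 with pandas 2.3.3 and numpy 2.4.6 made the tables, and matplotlib 3.10.9 the figures. On data simulated for this comparison (12668 genes, 10 runs, 200 changed genes), the fit recovered 4.8% of the changed genes at a log2 fold of 1, 63.4% at 2 and 89.8% at 3. The simulated noise was normal and, for each gene, equal in all 6 libraries, while the fitted library weights ran from 0.198 to 2.76. These are averages over all genes, and recovery among the members was not simulated. Alternatives were pseudocounts of 0.1 and 0.01, no filter, a minimum mean of 5 FPKM, trimmed-mean scaling, quantile normalization, TPM, a weight per library, robust eBayes, a replicate block, voom on the recovered reads and leaving out each library.

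Members, lists and tests were chosen with earlier results of these data known. Members named by rule were the 2 most abundant per subfamily and those whose groups did not overlap. From each companion list up to 2 genes whose groups did not overlap, with the largest log2 fold change, were named; other genes were named after their values were seen.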

Additional observations from a re-analysis of the deposited data

How the results depend on the processing

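No member was called by limma under the alternatives except with a weight per library, where 2 were (Gsta1 and Gstt1), along with 5 companion genes; that fit called 331 genes in all, against 23 without weights, and gave WT libraries 1 to 3 weights of 2.76, 0.198 and 0.465. Over the other alternatives the count of all genes called ran from 1 (voom on the recovered reads) to 46 (TPM), with 4 under no filter and 9 with a pseudocount of 0.01. Correlations of deviations were -0.149, 0.18 and 0.396 for same-numbered libraries and -0.388 to 0.177 for differently numbered ones. These do not settle whether the replicate numbers pair the libraries. With the replicate block 0 members and 7 genes in all were called. TPM shifted the median of all genes to 0.15. The members' median was -0.14 with the weights and -0.04 with no filter. The count of members that did not overlap ran from 9 to 20 when a library was left out, against 8. The share of all genes that did not overlap likewise ran from 19.6% to 43.8%, against 16.7%.

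Of the 24 members named by rule, 11 kept their direction under all alternatives, among them the 8 whose groups did not overlap. For these 8, leaving out a library could not turn the direction, since the groups do not overlap, so that part is no check. The other 13 turned in at least 1. With trimmed-mean scaling Gstk1 was at -0.0077 and Gstt2 at -0.024; with quantile normalization Gstk1 was at -0.038 and Gstp1 at -0.071; with voom Gstt2 was at -0.029. With a weight per library Gstt2 was at -0.10, Ces1f at 0.31, Ces1g at 1.01 and Ugt2b5 at 0.28. When each library was left out, the log2 fold change ran from -0.65 to 1.44 for Ces2c, -0.39 to 2.21 for Ces2e, -1.20 to 0.86 for Ces1f, -1.76 to 1.38 for Ces1g, -0.69 to 0.98 for Gstk1, -0.025 to 0.90 for Gstp1, -0.19 to 0.19 for Gstt2, -0.057 to 0.68 for Mgst1, -0.017 to 1.45 for Mgst3, -0.11 to 0.74 for Sult2b1, -1.38 to 0.20 for Ugt1a7c, -1.34 to 0.38 for Ugt2b34 and -1.68 to 0.76 for Ugt2b5. The cause was not tested. Reads behind the tested members ran from 425 (Gstm7) to 40520 (Mgst3) over the 6 libraries.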
